A study of Mus musculus with 96 samples.

Results

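The microRNA-181 (mir-181) family was examined in mouse liver through 5 precursor hairpins, which were 5 of the 1187 hairpins in the deposited liver table. The members were the rows with the hairpin identifiers MI0000223 (mir-181a-2), MI0000697 (mir-181a-1), MI0000723 (mir-181b-1), MI0000823 (mir-181b-2) and MI0000724 (mir-181c). The remaining member of the family, mir-181d, was not analysed here. MicroRNAs had been sequenced from the liver of 96 C57BL/6 mice at 6 or 10 months of age, with 4 females and 4 males of each genotype and line at each age, which gave 24 groups of 4 libraries. Knock-in mice were heterozygous, with the endogenous mouse Htt allele beside a knock-in allele that holds exon 1 of human HTT. The CAG tract had 20 repeats in Q20 mice, 50 in Q50, 92 in Q92 and 140 in Q140 mice. Wild-type (WT) mice were littermates of the Q20 line or of the Q50 line. Each repeat length is a knock-in line of its own, and no WT littermates of the Q92 and Q140 lines are among these libraries, so repeat length and line cannot be told apart. WT mice of both lines and Q20 mice together served as the 24 controls at each age, as in the design of the study.

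Library totals ran from 2195052 to 6662671 counts, with a median of 5149567. Males had the lower totals: the median was 4259133 in males and 5149567 in females at 6 months, and 5186571 in males and 5837609 in females at 10 months. In the labels the libraries of the 2 ages carry separate runs of numbers, so effects of age and of the set of libraries cannot be told apart. At 10 months 4 libraries stood apart from the rest by a connectivity criterion of the study and were left out of the tests: Q92 female replicate 1, Q92 male replicate 2, and male replicate 3 of the WT mice of each line. All tests therefore rest on 48 libraries at 6 months and 44 at 10 months, while levels are given over all 96. None of the 144 pairs of replicates held identical values. The table pairs its identifiers with no names, so markers of hepatocytes, blood cells and other liver cells were not analysed here, and the tissue label was not checked against them.

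MicroRNAs are short RNAs cut from the 2 arms of a folded hairpin, and an arm loaded into an Argonaute protein represses messenger RNAs that pair with its seed, the stretch near its 5′ end. The 5p arms are the main products of the mir-181 hairpins. miR-181a is best known in developing T cells, where it tunes the response of the T cell receptor, and family members are also abundant in brain. In liver, family members have been tied to the response of hepatocytes to transforming growth factor beta and to stem-like liver tumour cells. Because the mature 5p arms share a seed, the hairpins are expected to act on overlapping targets, and each hairpin can be read as a separate supply of closely related molecules.

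The sequences show how closely the members are related and which hairpins give the same mature arm. All were taken from RefSeq on GRCm38.p6, in which the 5 members were matched by symbol. The mature 5p arms follow, 5′ to 3′, with the seed (bases 2 to 8) in capitals.
miR-181a-5p: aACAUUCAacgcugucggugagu
miR-181b-5p: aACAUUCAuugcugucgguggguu
miR-181c-5p: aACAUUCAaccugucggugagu
The seed was the same in all of them, and it was found in 6 of the 1738 mature mouse microRNAs of the table, which belong to these 5 hairpins and Mir181d. The 5p arms of mir-181a-1 and mir-181a-2 were identical over 23 bases, and those of mir-181b-1 and mir-181b-2 over 24 bases. Counted from 1 at the 5′ end of miR-181a-5p, miR-181b-5p differed from it by A9U, C10U and A21G and was 1 base longer. miR-181c-5p became identical to miR-181a-5p once the base at position 11 of miR-181a-5p was left out. A read of the shared 5p arm alone therefore fits either of the paired hairpins.

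The 3p arms, shown because they are what differs between the paired hairpins, carried other seeds (capitals, bases 2 to 8).
miR-181a-1-3p: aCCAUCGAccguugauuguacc
miR-181a-2-3p: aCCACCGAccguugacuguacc
miR-181b-1-3p: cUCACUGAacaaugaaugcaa
miR-181b-2-3p: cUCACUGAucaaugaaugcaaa
miR-181c-3p: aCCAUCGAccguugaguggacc
The whole hairpins of the pairs, with the 5p arm in capitals, show the loops and flanks that the shared arm does not cover.
mir-181a-1: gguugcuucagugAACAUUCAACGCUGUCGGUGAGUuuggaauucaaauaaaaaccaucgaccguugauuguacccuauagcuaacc
mir-181a-2: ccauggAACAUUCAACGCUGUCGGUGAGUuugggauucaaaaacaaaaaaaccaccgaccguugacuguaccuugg
mir-181b-1: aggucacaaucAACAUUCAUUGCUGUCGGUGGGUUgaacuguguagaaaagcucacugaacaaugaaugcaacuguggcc
mir-181b-2: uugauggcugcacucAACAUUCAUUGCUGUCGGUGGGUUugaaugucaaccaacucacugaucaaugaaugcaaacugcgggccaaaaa
The table gives 1 value per hairpin, so reads of the 5p and 3p arms of a hairpin were not told apart.

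The 5 hairpins lie at 3 loci (GRCm38). The hairpins mir-181a-1 (chr1:137966455-137966541, plus strand) and mir-181b-1 (chr1:137966639-137966718, plus strand) are 97 bases apart. Both overlap an exon of the long noncoding RNA A430106G13Rik and lie in an intron of the processed transcript Gm4258, each on the same strand. The hairpins mir-181a-2 (chr2:38852735-38852810, plus strand) and mir-181b-2 (chr2:38853830-38853918, plus strand) are 1019 bases apart, opposite to an intron of Nr6a1, which encodes an orphan nuclear receptor on the minus strand. mir-181c (chr8:84178873-84178961, minus strand) lies in an intron of Nanos3, a gene of germ cell development, on the same strand. Each of the first 2 loci thus holds 1 mir-181a hairpin and 1 mir-181b hairpin.

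Together the 5 hairpins held 0.427% of all counts, with a range of 0.247% to 0.682% across libraries. Levels of different hairpins are compared per length, in the deposited FPKM (fragments scaled by hairpin length and by the library total). mir-181a-2 had the highest level at 45811 ± 9503 FPKM (SD, n = 96), and mir-181c followed at 5118 ± 1267 FPKM. The level of mir-181a-1 was 1721 ± 455 FPKM, that of mir-181b-1 1305 ± 355 FPKM, and that of mir-181b-2 658 ± 228 FPKM. In shares of the family's counts, mir-181a-2 made up 81.9%, mir-181c 10.8%, mir-181a-1 3.53%, mir-181b-1 2.46% and mir-181b-2 1.37%. Among all 1187 hairpins ranked by mean CPM (counts scaled to a common library total), mir-181a-2 was 33rd, mir-181c 78th, mir-181a-1 114th, mir-181b-1 127th and mir-181b-2 145th. All 5 hairpins reached 1 CPM in 96 of 96 libraries and passed the abundance filter of the tests at both ages. The lowest single count was 85.6, for mir-181b-2, whose counts ran up to 658, and the counts of mir-181a-2 ran from 6287 to 28115. Counts of mir-181a-1, mir-181a-2, mir-181b-1 and mir-181b-2 were fractional in 96 of 96 libraries and those of mir-181c in 17, so these values are estimates, and how reads that fit both hairpins of a pair were divided is not given. Each pair was therefore also tested as a sum.

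The mean level of each member was lower in males than in females at both ages. At 6 months the CPM of mir-181a-2 ran from 2887 through a median of 4176 to 4680 in the 24 females, and from 2257 through 3047 to 4673 in the 24 males. At 10 months it ran from 3032 through 4017 to 5640 in females, and from 1981 through 2932 to 4049 in males. At both ages the males lay lower, and 23 of 24 were below the female mean, while the ranges of the sexes overlapped. In edgeR's quasi-likelihood test mir-181a-2 was lower in males by a log2 difference of -0.33 ± 0.05 (SE, adjusted p = 5.37e-07) at 6 months, or -20.5%. The difference was -0.41 ± 0.06 (edgeR, adjusted p = 9.69e-08), or -24.9%, at 10 months.

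mir-181a-1, which gives the same 5p arm, showed the same direction. Its CPM ran from 121 through 170.2 to 229 in females and from 85.0 through 123 to 203 in males at 6 months. At 10 months the values were 131, 174 and 260.3 in females and 82.6, 117 and 176 in males. At 10 months 24 of 24 males were below the female mean and 16 were below the lowest female. The log2 difference of males from females was -0.38 ± 0.07 (edgeR, adjusted p = 2.71e-05) at 6 months and -0.60 ± 0.07 (edgeR, adjusted p = 9.03e-10) at 10 months. The latter, -34.0%, was the largest sex difference of any member at either age.

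mir-181b-1, the neighbour of mir-181a-1, was measured at 66.3 to 153 CPM (median 119) in females and 47.3 to 135 CPM (median 87.1) in males at 6 months. At 10 months its CPM ran from 66.1 through 125 to 192 in females and from 56.9 through 84.1 to 129.5 in males. The ranges overlapped widely at 6 months, when only 2 males were below the lowest female, but 20 of 24 males were below the female mean, and 23 of 24 were at 10 months. Its log2 difference was -0.30 ± 0.08 (edgeR, adjusted p = 0.00280) at 6 months and -0.51 ± 0.09 (edgeR, adjusted p = 3.74e-06) at 10 months.

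mir-181c, the member of the third locus, ran from 353 through 515 to 735 CPM in females and from 264 through 389 to 520.4 CPM in males at 6 months. At 10 months the values were 365, 501 and 663 CPM in females and 267, 381 and 601 CPM in males. At 6 months 24 of 24 males were below the female mean, and 12 of 24 females were above the highest male. The log2 difference was -0.41 ± 0.07 (edgeR, adjusted p = 1.52e-05) at 6 months and -0.41 ± 0.06 (edgeR, adjusted p = 1.20e-06) at 10 months.

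mir-181b-2, the scarcest member, had the weakest sex difference at 10 months. At 6 months its CPM ran from 27.8 through 55.0 to 111 in females and from 20.4 through 42.5 to 104 in males. At 10 months it ran from 46.3 through 71.5 to 156 in females and from 36.4 through 57.6 to 105 in males. Of the 24 males, 22 were below the female mean at 6 months and 19 at 10 months. The log2 difference was -0.32 ± 0.11 (edgeR, adjusted p = 0.0134) at 6 months, which passed the threshold of 0.05. At 10 months it was -0.22 ± 0.09 (edgeR, adjusted p = 0.0563), which did not. It passed with all libraries kept (-0.28, edgeR adjusted p = 0.0231), on column totals without TMM scaling (-0.24, edgeR adjusted p = 0.0449) and when any of 9 single libraries was left out.

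**Figure D1:**
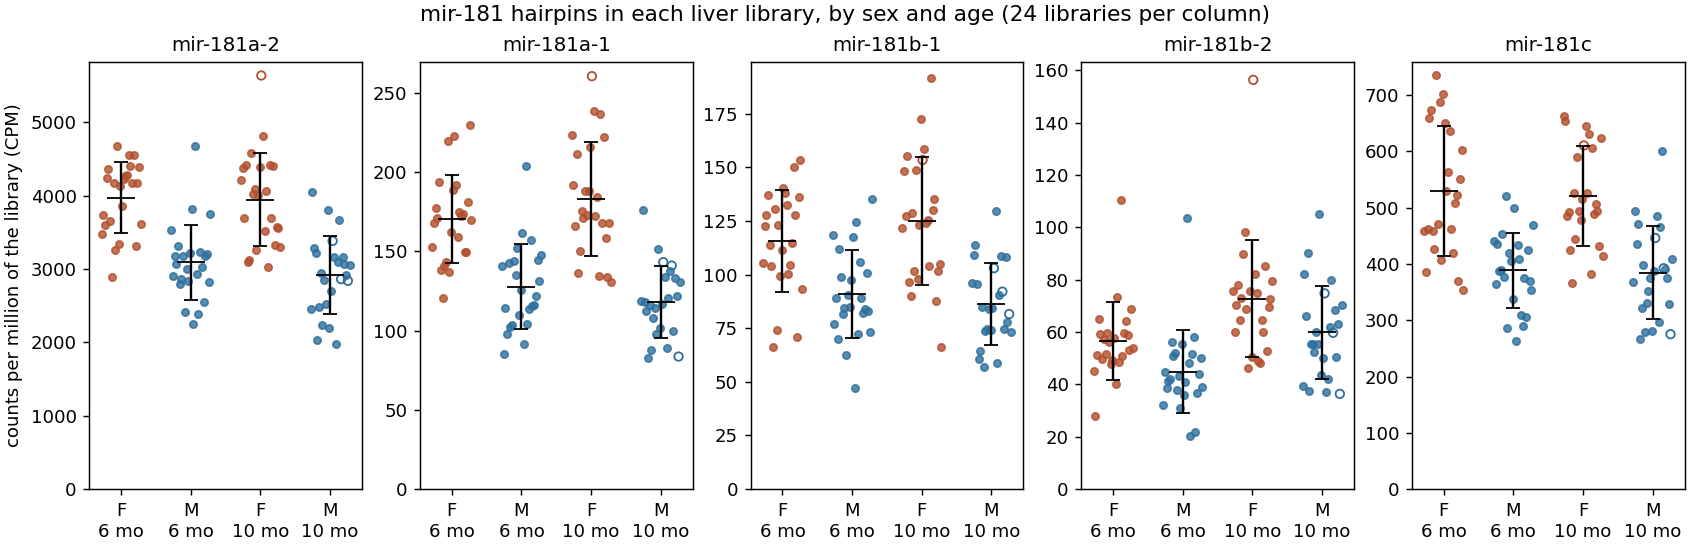
CPM of each mir-181 hairpin (vertical axis, from 0) in each of 24 females (F) and 24 males (M) at 6 and 10 months. Bars show the mean and SD of each column, and hollow points are the 4 libraries left out of the tests; the male mean lies below the female mean for each of the 5 hairpins at both ages.

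Over the family, 5 of 5 members were called lower in males at 6 months and 4 of 5 at 10 months. Reads of a shared 5p arm fit both hairpins of a pair, so the 5 members are not separate observations. For comparison, 38.2% of all 374 hairpins tested differed by sex at 6 months, 15.8% being lower in males. At 10 months 45.2% of 383 differed, 23.2% being lower in males. The median log2 difference was -0.33 over the members against 0.02 over all hairpins at 6 months, and -0.41 against -0.02 at 10 months. DESeq2 called the same numbers of members, 5 and 4. These tests measure the bulk liver, in which fewer cells of a type and less RNA per cell cannot be told apart.

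The sex difference was also read in each genotype and in each lane tag, the part of the library label that names a sequencing lane. Over the 12 combinations of genotype, line and age, the male mean was the lower in 12 of 12 for mir-181a-1, mir-181a-2, mir-181b-1 and mir-181c, and in 9 of 12 for mir-181b-2. The log2 ratio of the means of males to females ran from -0.68 to -0.21 for mir-181a-2 and from -0.91 to 0.13 for mir-181b-2. Within the lane tags that held at least 4 libraries of each sex (L6 and L7 at 6 months, L5, L6 and L7 at 10 months), the ratio was negative for each member, and the smallest in size was -0.06, for mir-181b-2 in L6 at 10 months. The part that the lower library totals of males play in the difference was not tested.

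Whether the sex difference itself changed between the ages was tested with an interaction term. None of the 5 members passed in edgeR, 0 of 5 had an unadjusted p under 0.05, and DESeq2 called 0. Of all 408 hairpins 53 had such a p, while edgeR made 0 calls (0%) and DESeq2 made 2. The lowest adjusted p among the members was 0.393 in edgeR, for mir-181a-1, with a log2 interaction of -0.19 and a 95% interval from -0.39 to 0.0018.

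By age, mir-181b-2 moved apart from the other members. In females its mean was 56.7 ± 14.9 CPM (SD, n = 24) at 6 months and 72.7 ± 22.4 CPM at 10 months. In males the mean was 44.8 ± 15.9 CPM at 6 months and 59.9 ± 17.7 CPM at 10 months. Of the libraries at 10 months, 19 of 24 females and 18 of 24 males lay above the mean of their sex at 6 months, and the ranges of the ages overlapped. The log2 difference of 10 from 6 months was 0.24 ± 0.07 (edgeR, adjusted p = 0.00339), or 18.2% higher. Without TMM scaling it was 0.36 (edgeR, adjusted p = 9.68e-05).

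The other members showed small differences with age that depended on the scaling. With TMM, mir-181a-2 was lower at 10 months by a log2 difference of -0.19 ± 0.04 (edgeR, adjusted p = 2.12e-05). mir-181a-1 was lower by -0.14 ± 0.05 (edgeR, adjusted p = 0.0162), and mir-181c by -0.14 ± 0.05 (edgeR, adjusted p = 0.0158). mir-181b-1 was at -0.12 ± 0.06 (edgeR, adjusted p = 0.0910). On column totals the median of all hairpins moved from 0.01 to 0.13, a shift of 0.12, and none of these 4 passed: mir-181a-2 was then at -0.06, mir-181a-1 at -0.01, mir-181c at -0.02 and mir-181b-1 at 0.00019, with the sign turned. Relative to the median of all hairpins, the differences with TMM and on column totals were -0.20 and -0.19 for mir-181a-2, and 0.23 and 0.23 for mir-181b-2. A change of scaling moves all hairpins by about the same amount, so this likeness was built in. It does not show which scaling holds. In plain CPM, the mean at 10 months over that at 6 months was 0.992 in females and 0.944 in males for mir-181a-2, but 1.28 and 1.34 for mir-181b-2. This ratio was 1.08 in females and 0.926 in males for mir-181a-1, and 1.08 and 0.949 for mir-181b-1. For mir-181c it was 0.984 and 0.989. In females the plain means of mir-181a-1 and mir-181b-1 were thus higher at 10 months.

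By edgeR, 3 of 5 members were thus lower and 1 higher at 10 months. Over all 408 hairpins 58.6% differed by age, 27.0% lower and 31.6% higher, and on column totals the split of the 239 calls moved from 129 higher and 110 lower to 168 higher and 71 lower. Without the abundance filter mir-181a-1 (-0.09, edgeR adjusted p = 0.277) and mir-181c (-0.10, edgeR adjusted p = 0.231) did not pass either.

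The divergence of mir-181b-1 and mir-181b-2 showed as a change in the balance of hairpins that give the same 5p arm. The ratio of mir-181b-1 to mir-181b-2, in FPKM within a library, had a median of 2.39 in females and 1.95 in males at 6 months. At 10 months the median was 1.85 in females and 1.54 in males, and over all libraries the ratio ran from 0.888 to 5.78. The ratio of mir-181a-2 to mir-181a-1 stayed on one side in every library, with a median of 26.4 and a range of 20.5 to 39.2. When each pair was summed before the fit, the mir-181b sum did not pass by age (log2 difference 0.018, edgeR adjusted p = 0.777). These ratios are a description, since fractional counts leave the split within a pair uncertain.

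**Figure D2:**
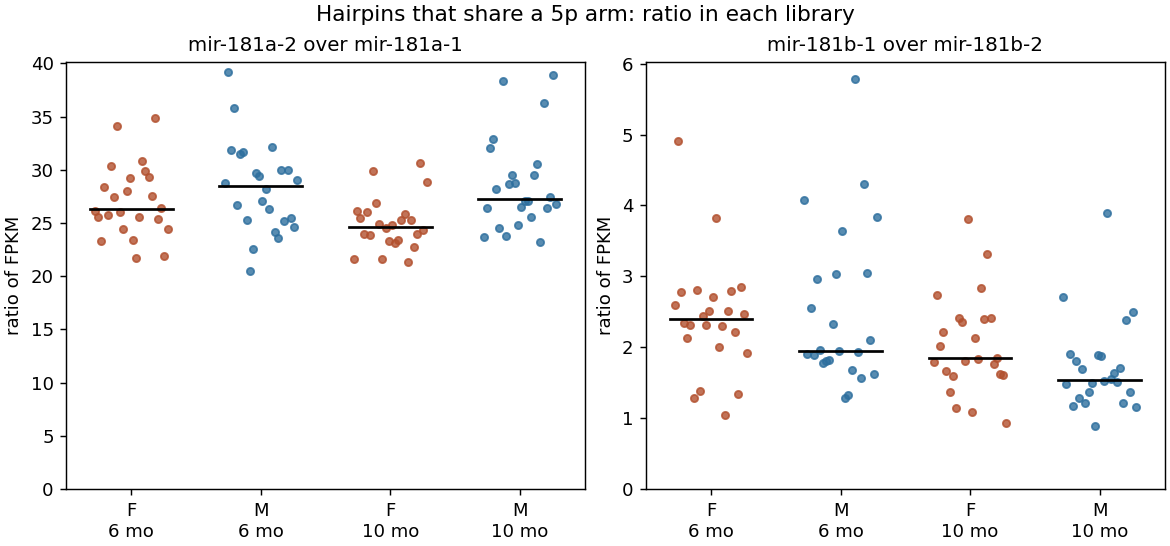
Ratio of deposited FPKM (vertical axis, from 0) of hairpins that share a 5p arm, in each library, by sex (F, M) and age, with the median as a line. The medians of mir-181b-1 over mir-181b-2 are 2.39 and 1.95 at 6 months and 1.85 and 1.54 at 10 months in females and males, and mir-181a-2 exceeds mir-181a-1 at least 20.5 times.

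In sums over the shared arm, mir-181a stood at 4146 ± 502 CPM (SD, n = 24) in females and 3218 ± 535 CPM in males at 6 months, and at 4127 ± 666 and 3035 ± 550 CPM at 10 months. The mir-181b sum stood at 172 ± 28.1 CPM in females and 136 ± 27.8 CPM in males at 6 months, and at 197 ± 39.8 and 146 ± 28.6 CPM at 10 months. The lower level in males was thus present in the summed values of both arms.

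The comparisons of Htt alleles asked whether the family's level in liver moved with the repeat. At 6 months the Q50, Q92 and Q140 mice were each set against the controls. edgeR called 0 of 5 members for Q50, Q92 and Q140, where it called 0%, 0.267% and 0% of all 374 hairpins. DESeq2 also called 0 of 5 in each, and an unadjusted p under 0.05 was reached by 0 members for Q50, 3 for Q92 and 0 for Q140. Over all hairpins 7, 29 and 5 had such a p for Q50, Q92 and Q140, and DESeq2 called 0, 1 and 0.

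The 3 members were mir-181a-2, mir-181a-1 and mir-181c in Q92 mice of 6 months. mir-181a-2 was at 3858, 4232, 4274 and 4278 CPM in the females and at 2257, 2928, 3825 and 4673 CPM in the males, against 2391 to 4560 CPM (median 3317) in the controls. The Q92 values overlapped those of the controls, and 5 of 8 mice were above the control mean of their sex. The log2 difference was 0.19 ± 0.07 (edgeR, adjusted p = 0.439), with a 95% interval from 0.05 to 0.33. For mir-181a-1 it was 0.22 ± 0.10 and for mir-181c 0.24 ± 0.11 (edgeR, adjusted p = 0.526 for both). That of mir-181b-2, 0.15 ± 0.15 (edgeR, adjusted p = 0.812), rested on Q92 male replicate 3, at 104 CPM, and was -0.037 without it. In Q140 mice of 6 months the log2 differences of the 5 members ran from -0.19 to 0.06, and in Q50 mice from -0.09 to 0.18.

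**Figure D3:**
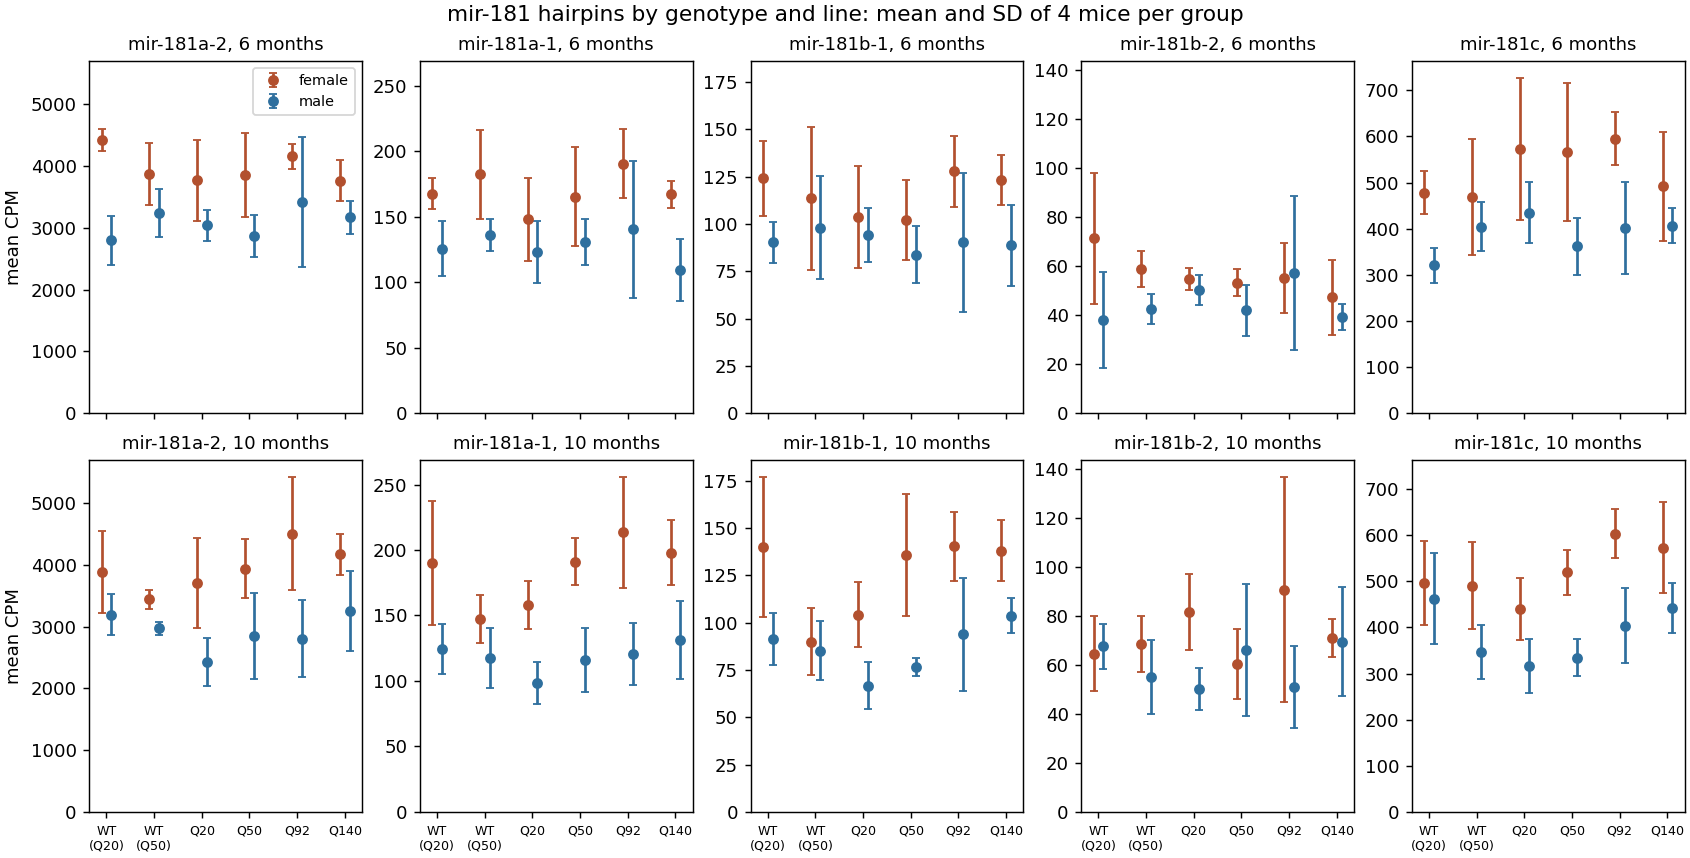
Mean CPM and SD (vertical axis, from 0) of each mir-181 hairpin in 4 females and 4 males of each genotype and line, at 6 months (upper row) and 10 months (lower row), with all 96 libraries kept. The female mean lies above the male mean in every column except 3 of mir-181b-2, and the bars of Q50, Q92 and Q140 mice overlap those of at least 1 of the control groups (WT mice of both lines and Q20) of the same sex and age.

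At 10 months edgeR again called 0 of 5 members in Q50, Q92 and Q140 mice, and called 0%, 1.04% and 1.31% of all 383 hairpins. DESeq2 called 0 of 5 in each. An unadjusted p under 0.05 was reached by 0 members for Q50, 1 for Q92 and 4 for Q140, and over all hairpins by 9, 65 and 52, while DESeq2 called 0, 8 and 10. At 10 months Q140 mice thus had the most members with such a p, all 4 above the controls, without a member passing the threshold. Without Q20 mice among the controls, edgeR called 0, 1 and 0 of 377 hairpins for Q50, Q92 and Q140 at 10 months. At 6 months the 5 members ran from -0.19 to 0.06 in Q140 mice, and from 0.15 to 0.24 in Q92 mice.

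Among the members mir-181b-1 had the largest difference in Q140 mice of 10 months. Its CPM was 122, 148, 127 and 155 in the 4 females and 96.2, 109, 114 and 95.6 in the 4 males. The controls ran from 56.9 through a median of 91.3 to 192 CPM, so the groups overlapped, but 8 of 8 Q140 mice were above the control mean of their sex. The log2 difference was 0.32 ± 0.13 (edgeR, adjusted p = 0.246), with a 95% interval from 0.06 to 0.57. The mean log2 difference from controls of the same sex and lane tag was 0.24 in L5, 0.40 in L6 and 0.80 in L7. All libraries were kept, and these lanes held 3, 3 and 2 Q140 mice and 8, 11 and 4 controls of either sex. In L7 the Q140 mice were females, and the only controls of their sex were at 90.0 and 66.1 CPM.

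The other members in Q140 mice of 10 months had smaller differences. mir-181a-2 was at 4212, 4379, 3692 and 4414 CPM in the females and 2457, 4049, 3292 and 3222 CPM in the males, against 2035 to 4587 CPM (median 3115) in the controls, a log2 difference of 0.17 ± 0.08 (edgeR, adjusted p = 0.366). mir-181a-1 differed by 0.21 ± 0.10 (edgeR, adjusted p = 0.334) and mir-181c by 0.22 ± 0.10 (edgeR, adjusted p = 0.319), each with 7 of 8 mice above the control mean of their sex. mir-181b-2 differed by 0.09 ± 0.12 (edgeR, adjusted p = 0.833), with 5 of 8 mice above. The values of these members also varied over the lane tags, as did those of mir-181b-1. In L5, L6 and L7 the mean log2 difference from controls was 0.03, 0.20 and 0.42 for mir-181a-2, and 0.11, 0.14 and 0.56 for mir-181a-1. It was -0.0038, 0.19 and 0.76 for mir-181c, and -0.07, 0.25 and -0.18 for mir-181b-2. In Q92 mice mir-181b-2 was the member with an unadjusted p under 0.05, at -0.32 ± 0.15 (edgeR, adjusted p = 0.252), and it was at -0.10 with all libraries kept. In Q50 mice the log2 differences ran from -0.12 to 0.11. These comparisons share their control libraries and are not independent of each other.

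**Figure D4:**
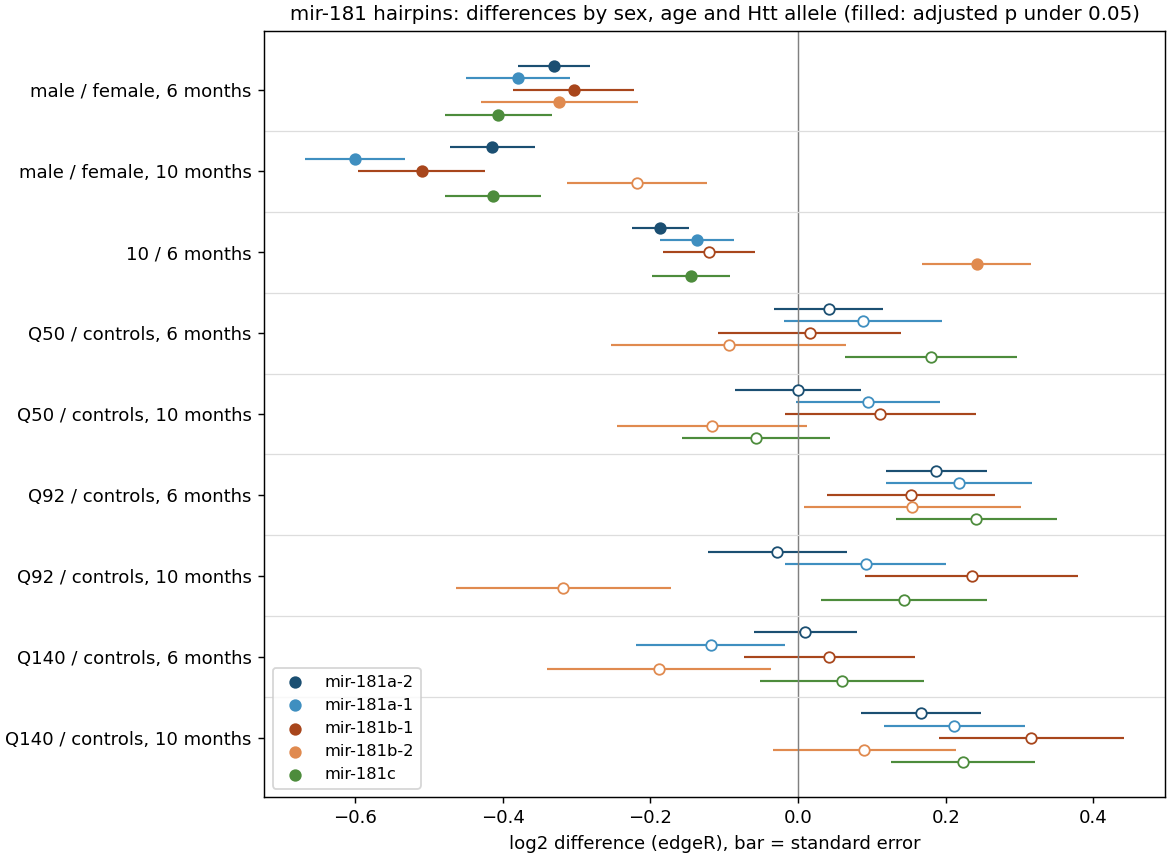
edgeR log2 differences of the 5 mir-181 hairpins (horizontal axis, point and standard error) by sex, age and Htt allele, filled where the adjusted p is under 0.05. The 9 filled points of the sex comparisons lie between -0.60 and -0.30, mir-181b-2 is the filled point above 0 by age, and no point of the Htt comparisons is filled.

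CAG length was also tested as a number, with 7 repeats for WT mice and the slope given per 100 repeats. No member was called at 6 months, at 10 months or with both ages combined, by edgeR or by DESeq2. edgeR called 0% of all hairpins at 6 months, 2.09% at 10 months and 0.546% of 366 hairpins over both ages. An unadjusted p under 0.05 was reached by 0, 3 and 2 members, against 8, 65 and 31 of all hairpins, while DESeq2 called 0, 17 and 2. The steepest slope was that of mir-181b-1 at 10 months, 0.24 ± 0.09 (edgeR, adjusted p = 0.170), and the flattest that of mir-181b-2, -0.00028 ± 0.09. Combined over the ages, the highest Z was 2.43 for mir-181c and the next 2.27 for mir-181b-1 (adjusted p = 0.417 for both, from the edgeR tests of each age). A difference of the slopes between the ages passed the test for no member: edgeR called 0 of 5 and 0% of all 408 hairpins, DESeq2 called 0 of each, and 0 members and 43 hairpins had an unadjusted p under 0.05. A miss of the threshold does not show that the levels were equal. The 95% intervals at 10 months reached a slope of 0.42 for mir-181b-1 and 0.30 for mir-181c. Without Q20 mice edgeR called 0 of 365 hairpins for CAG length at 6 months, 0 of 377 at 10 months and 0 of 360 over both ages.

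In the order of mean CPM over the 24 groups, 23 of 23 neighbouring pairs were closer than the larger of their SDs for each member, which with so many groups says nothing of groups farther apart. Groups of females filled 12 of the 12 upper places for mir-181a-1 and mir-181a-2, 11 for mir-181b-1 and mir-181c, and 8 for mir-181b-2. Q92 females of 10 months had the highest mean of each member, such as 4508 ± 922 CPM (SD, n = 4) for mir-181a-2 and 603 ± 53.2 CPM for mir-181c. That group holds a library left out of the tests, and without it mir-181c (601 ± 65.0 CPM, n = 3) kept the place. mir-181a-1 then stood level in Q92 (198 ± 35.2 CPM, n = 3) and Q140 (198 ± 24.9 CPM, n = 4) females of 10 months, while mir-181a-2, mir-181b-1 and mir-181b-2 had other highest groups. Q20 males of 10 months were lowest for mir-181a-2 (2426 ± 390.2 CPM), mir-181a-1 (98.6 ± 15.9 CPM), mir-181b-1 (66.6 ± 12.4 CPM) and mir-181c (316 ± 59.2 CPM). The lowest mean of mir-181b-2 was in 6-month males that were WT mice of the Q20 line, at 37.9 ± 19.7 CPM. The highest group exceeded the lowest 1.86 to 2.39 times. Within groups mir-181a-2 varied least, with a median coefficient of variation of 12.5%, and mir-181b-2 most, with 23.7%.

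Over the 24 groups, in log2 of the group's mean CPM plus 1, members of different loci followed each other closely, apart from mir-181b-2. Pearson's r was 0.926 (Spearman's rho 0.937) between mir-181a-2 and mir-181a-1, and 0.927 (rho 0.901) between mir-181a-1 and its neighbour mir-181b-1. It was 0.884 (rho 0.900) between mir-181a-2 and mir-181c, which lie on different chromosomes. Between mir-181a-2 and its own neighbour mir-181b-2 it was 0.548 (rho 0.576), and mir-181b-2 reached 0.435 to 0.548 with the other members. The points share sex, age and library set, so these values are a description, and mir-181a-1 and mir-181a-2 also share the reads of their 5p arm.

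Of 410 other hairpins, given by identifier because the table holds no names, MI0005450 was the most alike for mir-181c (r = 0.942, rho 0.923), mir-181a-2 (r = 0.877, rho 0.858) and mir-181b-1 (r = 0.766, rho 0.721). MI0004120 was the most alike for mir-181a-1 (r = 0.8286, rho 0.759), and the next for mir-181a-2 (r = 0.870, rho 0.809) and mir-181b-1 (r = 0.765, rho 0.725). Next after them came MI0005484 for mir-181a-1 (r = 0.822, rho 0.795) and MI0001642 for mir-181c (r = 0.891, rho 0.884). mir-181b-2 was most like MI0000687 (r = 0.856, rho 0.859) and MI0005003 (r = 0.847, rho 0.813), neither of which was among the 2 nearest of another member.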

How the data were processed

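Liver microRNA libraries of 96 mice were analysed. Per the labels, RNA was extracted with a miRNeasy kit and small RNA was enriched, and CASAVA 1.8.2 is named in the submitters' processing notes. Per the study's methods, clipped single-end reads were aligned to mm10 with STAR and counted with HTSeq. The sources used here do not give the origin of the fractional values. What the authors deposited was a table of estimated counts per hairpin, fractional for 248 of 1187 hairpins, and a table of FPKM, which equal CPM over hairpin length. Where the design assumed whole counts, the estimated counts were rounded. No per-sample column went unused.

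Groups came from the labels. The tests used edgeR 4.0.16 in R 4.3.3, with TMM scaling and its quasi-likelihood F test, on hairpins that reached 1 CPM in 8 or more libraries. Adjustment was by Benjamini-Hochberg over all hairpins tested, with a threshold of 0.05. Sex was tested with genotype and line and lane tag as covariates, alleles and CAG length with sex and lane tag, and age with sex, genotype and line. The interactions with age were tested without the lane tag. That of sex had sex, age, genotype and line as terms, and that of CAG length had CAG length, sex, age and sex by age. Libraries with a connectivity Z.k under -5 were left out, as in the study. For CAG length, the signed Z values of both ages were added and divided by the root of their number. DESeq2 1.42.0, other scalings, no filter, all libraries, a replicate block, no lane tag, no Q20 controls, summed arms and leaving out each library in turn were the alternatives. The fits were tested on simulated data. Likeness used log2(CPM + 1) of group means. The text names the 5 members and, for each, the 2 other hairpins of highest Pearson correlation. Members and lists were chosen with earlier results of these data known. The p-values measure the spread between mice of these lines. Sequences come from RefSeq (GRCm38.p6), and overlapping genes from GENCODE on GRCm38.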

Additional observations from a re-analysis of the deposited data

Results flagged for a closer look

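Over the 120 sets of 4 libraries (24 groups, 5 hairpins), 5 held a library far from the other members of its group, by a rule that chance alone meets in about 1 in 20 sets. mir-181a-1 was at 175.7 CPM in Q140 male replicate 2 at 10 months, against 112 to 119 CPM in the other males. It was at 149.8 CPM in female replicate 4 of the WT mice of the Q20 line at 6 months, against 172 to 175 CPM, and at 157 CPM in male replicate 2 of the same line and age, against 113 to 116 CPM. mir-181a-2 was at 3858 CPM in Q92 female replicate 1 at 6 months, against 4232 to 4278 CPM, and mir-181b-1 at 84.0 CPM in Q50 male replicate 3 at 10 months, against 73.6 to 74.4 CPM. All 5 libraries were kept in the tests. No interaction of sex or CAG length with age passed the threshold for a member.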

How the results depend on the processing

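The number of members called was within 1.5 times the reported one under each alternative, apart from 4 cases. Summing the hairpins of a shared arm, which leaves 3 values in place of 5, gave 3 calls for sex at 6 months and 2 by age. By age, column totals without TMM gave 1 call and no abundance filter 2. mir-181b-1 turned sign by age on column totals (0.00019) and as the mir-181b sum (0.018). mir-181b-2 in Q92 mice of 6 months ran from -0.037, without Q92 male replicate 3, to 0.231 as single libraries were left out. With single libraries left out in turn, 5 to 5 members were called for sex at 6 months, 4 to 5 for sex at 10 months, 4 to 5 by age and 0 to 0 in each other comparison. mir-181b-1 passed by age without Q20 male replicate 4 (edgeR, adjusted p = 0.0439) or Q50 female replicate 4 (0.0487) of 10 months. The adjusted p of mir-181b-2 for sex at 10 months ran from 0.0182 to 0.145 over these fits. Deviations of same-numbered libraries correlated with a mean of -0.0059 at 6 months and -0.0078 at 10 months, over 264 pairs at each age. At these ages 8 and 10 of 48 libraries were closest to their own number. The pairs join all groups of an age, most of them of different lines. Litters shared within a line were therefore not tested by replicate number. With the number as a replicate block, 5, 4 and 4 members were called for sex at 6 months, sex at 10 months and age, and 0 elsewhere. mir-181b-2 had the lowest counts, 85.6 to 658, and the highest median coefficient of variation within groups, 23.7%, and the part of depth in it was not tested.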
